A study of Rattus norvegicus with 10 samples.

Results

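The genes described here are 10 cAMP-induced and immediate early genes of thyroid cells: the orphan nuclear receptors Nr4a1, Nr4a2 and Nr4a3, the cAMP-responsive modulator Crem, the phosphodiesterases Pde10a and Pde4d, the phosphatase Dusp1, and the transcription factors Fos, Jun and Egr1. They were chosen by name, and every probe whose transcript belongs to one of them was taken, which gave 18 of the 30367 probes of the array and 10 of its 15316 named genes. PCCl3 is an established rat cell line with features of thyroid follicular cells, and all cultures were grown with 1 nM TSH, insulin, somatostatin, transferrin, hydrocortisone, glycyl-histidyl-lysine and calf serum. The siFoxE1 cells had received 25 nM of a SMARTpool of siRNAs against FoxE1, a forkhead transcription factor of the thyroid. The siScramble cells had received 25 nM of a non-targeting pool with the same transfection reagent, and the wild type (wt) cells were left untreated. RNA came from 4 cultures of each condition, for transfected cells 48 h after transfection. siFoxE1 RNA was hybridised against siScramble RNA on 5 arrays and against wt RNA on another 5. In either comparison 4 arrays held single cultures, with siFoxE1 in Cy5, and 1 held a pool of those cultures with siFoxE1 in Cy3. A pool adds no culture and the siFoxE1 extracts were shared between the comparisons, so n is 4 throughout and the comparisons are not independent. No unstimulated cells were part of the design, so the arrays show levels under continuous TSH and not an induction by cAMP.

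In thyroid follicular cells TSH binds a receptor that raises cAMP, cAMP frees the catalytic subunit of protein kinase A, and the kinase phosphorylates CREB, which sits on cAMP response elements in the promoters of early genes. Several of these genes feed back on the signal: phosphodiesterases break down cyclic nucleotides, the short ICER forms of Crem repress cAMP response elements, and Dusp1 removes phosphate from MAP kinases. The Nr4a receptors act without a known physiological ligand and are controlled mainly through their amount. Fos and Jun form the AP-1 factor, and Egr1 is a zinc finger factor that growth signals induce within minutes.

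The stretches of rat promoter just before the annotated starts are shown because cAMP is known to act on such genes through response elements near the start. RefSeq lists 14 starts for 7 of the 10 genes in the GRCr8 assembly, and Nr4a3, Fos and Jun were not matched. In the 250 bases before each start, the full cAMP response element TGACGTCA was found before 3 starts of 2 genes, Crem and Dusp1, against 1.59% of all 33469 promoters of the table. The short form TGACG, searched on both strands, was found before 10 of the 14 starts and in all 7 genes, against 18.2% of all promoters. Each full site also holds the short form on either strand. Not all starts are printed, and each one printed was chosen with a site in its last 130 bases. Pde10a start 1 and Pde4d starts 1, 2, 3 and 5 had no site in those bases and are left out. Crem start 1 and Pde4d start 4, with 1 short site each there, are left out too. In the 130 bases printed for a start, capitals mark the letters of short and full sites. Nr4a1 (chr7:134260008-134260137, plus strand), Nr4a2 (chr3:62104888-62105017, minus strand), Crem at its listed starts 2 and 3 (chr17:58984667-58984796 and chr17:58985360-58985489, plus strand), Pde10a at its second listed start (chr1:54765669-54765798, minus strand), Dusp1 (chr10:17184723-17184852, plus strand) and Egr1 (chr18:26736948-26737077, plus strand) read as follows.
Nr4a1: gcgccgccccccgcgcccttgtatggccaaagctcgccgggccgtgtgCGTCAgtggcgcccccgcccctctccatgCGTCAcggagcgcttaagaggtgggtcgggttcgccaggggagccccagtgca
Nr4a2: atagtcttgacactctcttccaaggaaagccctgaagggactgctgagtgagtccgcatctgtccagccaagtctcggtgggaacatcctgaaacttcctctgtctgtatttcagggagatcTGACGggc
Crem start 2: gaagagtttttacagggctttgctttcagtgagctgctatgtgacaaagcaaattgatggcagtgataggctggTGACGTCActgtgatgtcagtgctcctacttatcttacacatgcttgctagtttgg
Crem start 3: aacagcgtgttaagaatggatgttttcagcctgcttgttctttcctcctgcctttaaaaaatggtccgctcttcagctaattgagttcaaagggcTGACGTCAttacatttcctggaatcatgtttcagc
Pde10a: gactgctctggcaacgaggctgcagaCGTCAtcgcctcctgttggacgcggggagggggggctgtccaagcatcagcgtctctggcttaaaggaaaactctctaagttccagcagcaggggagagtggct
Dusp1: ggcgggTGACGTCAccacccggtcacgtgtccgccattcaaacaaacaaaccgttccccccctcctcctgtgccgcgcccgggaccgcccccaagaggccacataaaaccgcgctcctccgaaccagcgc
Egr1: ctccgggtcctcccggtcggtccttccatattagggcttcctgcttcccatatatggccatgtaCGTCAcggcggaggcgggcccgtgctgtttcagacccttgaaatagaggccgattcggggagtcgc

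The full site of Crem began 56 and 35 bases before its starts 2 and 3, which lie downstream of start 1, and that of Dusp1 began 124 bases before its start. Nr4a1 had 4 short sites, beginning 246, 226, 82 and 53 bases before the start. Nr4a2, its relative, had a single short site that began 8 bases before the start. The FoxE1 core AAACA, searched on both strands, was found before 8 of the 14 starts, in Crem, Dusp1, Egr1 and Pde4d, against 47.0% of all promoters. The longer motif in which the NF1 motif TTGG stands 5 to 30 bases before AAACA on either strand was found before 1 start, the fifth of Pde4d, against 6.36% of all promoters. Sequence farther upstream or after the start was not searched, so a gene with no match here may hold the motif elsewhere. A match describes these letters only, and binding was not measured on the arrays.

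**Figure D1:**
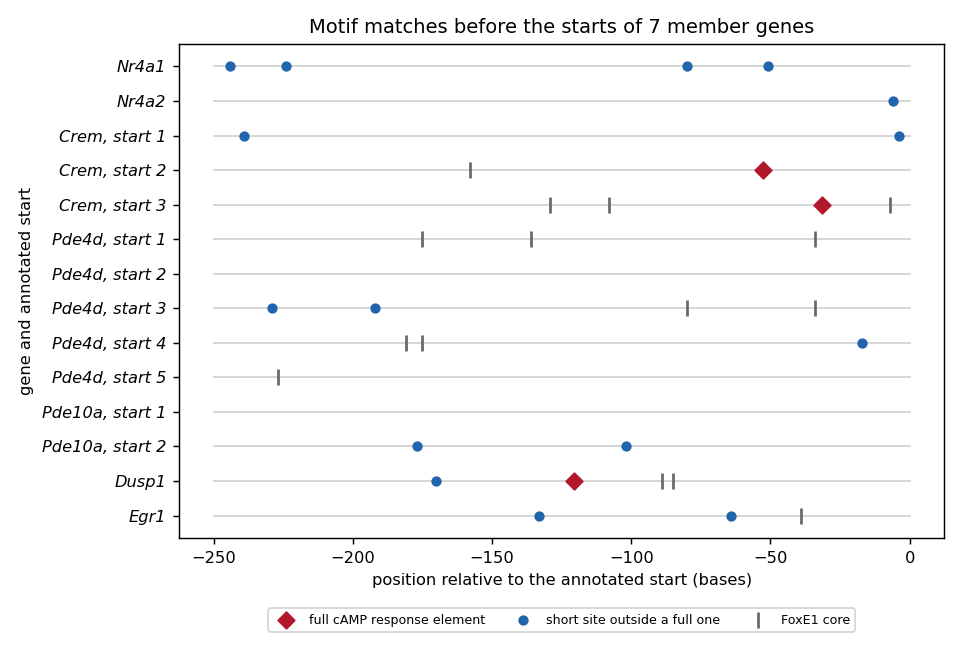
Positions of motif matches in the 250 bases before each of the 14 annotated starts of 7 genes. The x axis gives bases before the start at 0 and each line is a start. Red diamonds are full cAMP response elements, blue dots are short sites outside a full one and grey strokes are FoxE1 cores on either strand. Full sites lie before 2 starts of Crem and before Dusp1.

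Each array carried 58717 spots, of which 60.6 to 68.2% in Cy3 and 56.8 to 60.3% in Cy5 were well above background, and no spot was saturated. The labels place siFoxE1 in Cy5 on the single-culture arrays and in Cy3 on the pools, whereas the colour key of the study's design drawing shows the reverse, and all signs here follow the labels. Foxe1 RNA, the target of the siRNA, fell against both references, with a log2 fold change of -0.78 ± 0.0830 against siScramble and -0.84 ± 0.0767 against wt (SE, limma, adjusted p = 0.0201 and 0.0389), and its ratio was below 0 on all 10 arrays. The single cultures averaged -0.58 against siScramble and -0.53 against wt, and the pools read -0.98 and -1.16. Both fitted values thus lay below the ratio of every single culture. All 7 thyroid follicular markers were well above background in all 20 channels, as were 3 of 5 fibroblast, 3 of 4 macrophage and leukocyte, 1 of 4 endothelial and 0 of 3 C cell markers. The summed log2 level of the leukocyte markers was 8.89 to 9.04 in siFoxE1, 8.73 to 9.01 in siScramble and 8.85 to 9.03 in wt cultures, so these ranges overlapped, while Cd14 and Aif1 were higher against siScramble at an unadjusted p under 0.05, by 0.25 and 0.19 (adjusted p = 0.262 and 0.274), and Cd14 was so against wt, by 0.19 (adjusted p = 0.254). The part of other cells in the results was not tested. Hspa5, the main chaperone of the endoplasmic reticulum, had log2 ratios of -0.04, -0.19, -3.27 and -1.28 for cultures 1 to 4 against siScramble and 0.34, -0.12, -3.85 and -1.10 against wt, so cultures 3 and 4 stood apart from cultures 1 and 2. Leaving out culture 3, the fitted log2 fold change of Nr4a2 was -0.59 against siScramble and -0.68 against wt, and leaving out culture 4 it was -0.56 and -0.69. The pool, which also holds RNA of the culture left out, stayed in these fits with 50% of the weight. Neither culture was thus fully removed, and these values do not show how far the result rests on it.

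Nr4a2, Crem, Pde10a and Dusp1 read lower in siFoxE1 than in siScramble cells by 1.23- to 1.56-fold and Jun read 1.20-fold higher, but none of these differences passed the test across all genes. None of the 10 genes passed an adjusted p under 0.05 in either comparison (limma with a dye term), where 0.162% of all 9882 genes passed against siScramble and 0.0498% of 10043 against wt. At an unadjusted p under 0.05, 5 of the 10 were lower against siScramble (Nr4a2, Crem, Pde10a, Pde4d and Dusp1) and 1 was higher (Jun), beside 8.31% and 9.35% of all genes. Against wt, 3 were lower (Nr4a2, Pde10a and Dusp1) and 1 was higher (Jun), beside 10.5% and 11.8% of all genes. By the brightest probe of each gene, the ratios of Nr4a2, Crem, Pde10a and Dusp1 were below 0 on all 5 arrays in both comparisons. Of all genes, 11.5% were so against siScramble and 13.9% against wt. The ratios of Jun were above 0 on all 5 arrays in both, and those of the brightest Egr1 probe against siScramble, beside 9.87% and 11.2% of all genes. The median log2 fold change of the 10 genes was -0.14 against siScramble and -0.09 against wt, beside -0.00 over all genes tested in either comparison. Since each channel holds RNA of a whole culture, fewer cells with a transcript and less of it per cell cannot be told apart.

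**Figure D2:**
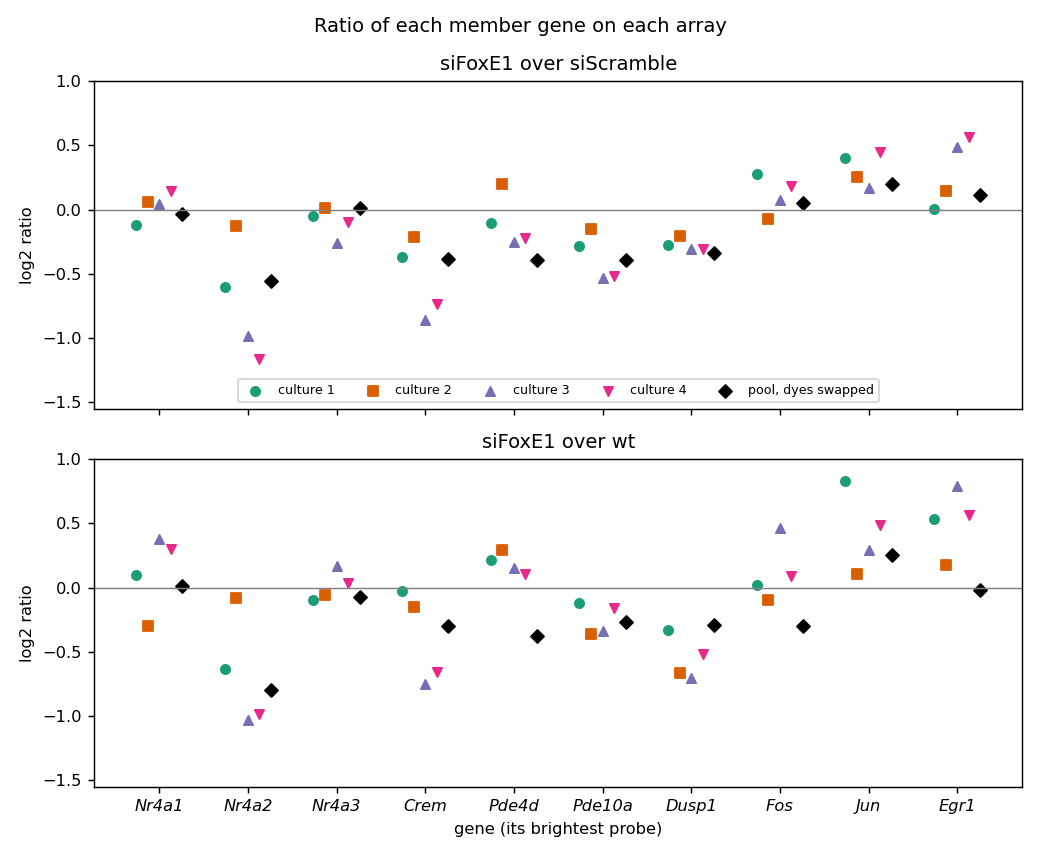
Log2 ratio of siFoxE1 over siScramble (upper panel) and over wt (lower panel) for the brightest probe of each of the 10 genes. Coloured symbols are the 4 single cultures and black diamonds the pooled array with swapped dyes. Nr4a2, Crem, Pde10a and Dusp1 lie below 0 and Jun above 0 on all 5 arrays of both panels.

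Nr4a2 (Nurr1, NM_019328), an orphan receptor also known for its part in dopaminergic neurons, had the lowest fitted value of the 10 genes in both comparisons. Its brighter probe gave log2 ratios of -0.60, -0.13, -0.98 and -1.16 for cultures 1 to 4 and -0.56 for the pool against siScramble. Against wt it gave -0.63, -0.08, -1.03 and -0.98 for the cultures and -0.80 for the pool. Cultures 3 and 4 were the lowest and culture 2 lay near 0 in both. The fitted log2 fold change was -0.64 ± 0.172 against siScramble (SE, adjusted p = 0.205) and -0.74 ± 0.177 against wt (adjusted p = 0.218). With the replicate number as a block in a fit of all 10 arrays, the value against wt was -0.70 (adjusted p = 0.0209), in a setting that called 12.1% of all genes. In that fit the pools formed a block of their own, although they hold RNA of the same 4 cultures. Its p-values thus treat the pools as if they were a further culture. The dimmer probe of the same transcript gave -0.40 against siScramble and -0.46 against wt, with culture 2 above 0 in both at 0.17 and 0.04.

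The levels behind these ratios differed in spread. In log2 intensity the brighter Nr4a2 probe read 8.37, 8.29, 8.25 and 8.63 in siFoxE1 cultures 1 to 4. The siScramble cultures read 8.91, 8.37, 9.19 and 9.75, and the wt cultures read 9.07, 8.42, 9.32 and 9.65. The siFoxE1 cultures lay within 0.385 of each other, whereas the siScramble cultures spanned 1.38 and the wt cultures 1.23, both with culture 2 lowest, then 1, 3 and 4. The dimmer probe did likewise, with spans of 0.246 in siFoxE1, 1.01 in siScramble and 1.10 in wt cultures. Culture 2, whose ratios were near 0, was the one with the lowest reference levels on both probes. Each ratio is the siFoxE1 level less that reference level, so with siFoxE1 levels this close this follows from the arithmetic. These spreads are over 4 cultures each and were not tested, and siFoxE1 RNA of single cultures was always in Cy5 and the reference in Cy3.

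**Figure D3:**
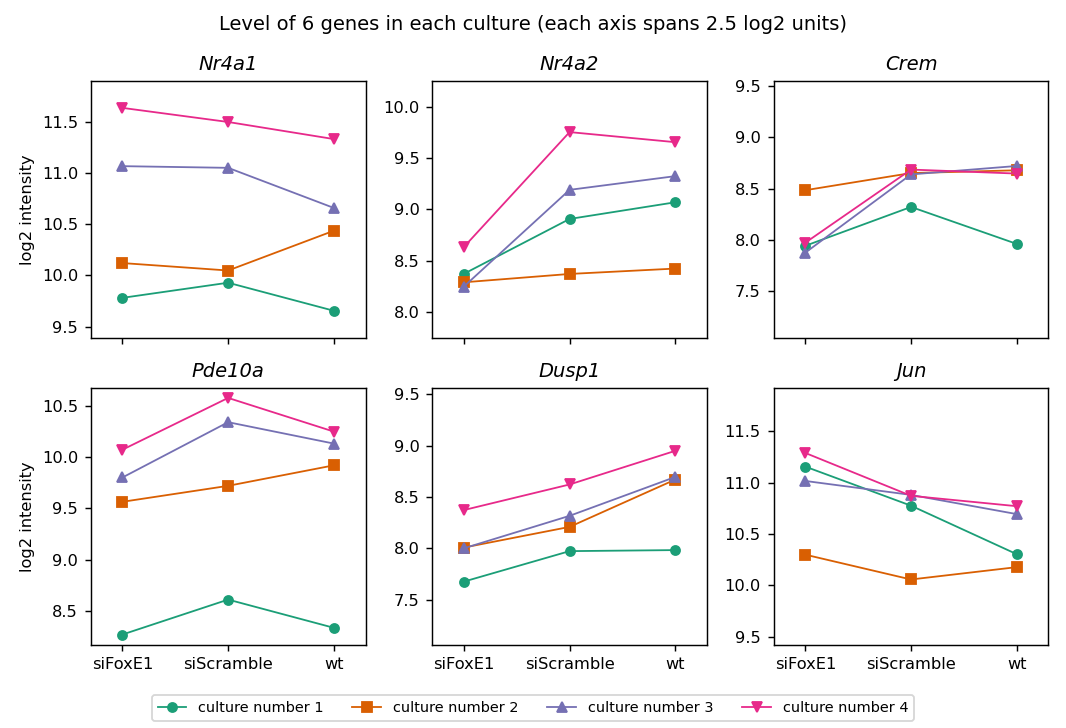
Log2 intensity of the brightest probe of 6 genes in siFoxE1, siScramble and wt cultures, with lines joining cultures of the same number. Each siFoxE1 value is the mean of 2 arrays of the same extract. The siFoxE1 values of Nr4a2 span 0.385, those of siScramble 1.38 and those of wt 1.23, while Nr4a1 spans 1.57 to 1.85 in every condition.

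Nr4a1 (Nur77, NM_024388) had no such pattern. Its log2 ratios against siScramble were -0.12, 0.06, 0.04 and 0.14 for the cultures and -0.04 for the pool. Those against wt were 0.10, -0.30, 0.38 and 0.30 for the cultures and 0.01 for the pool. The fitted value was -0.00 against siScramble, with a 95% confidence interval of -0.17 to 0.16, and its sign turned in 7 of 17 other settings. Against wt it was 0.06, with an interval of -0.25 to 0.38. Its level nonetheless differed widely between cultures, at 9.78, 10.12, 11.07 and 11.63 in siFoxE1, 9.93, 10.05, 11.05 and 11.50 in siScramble and 9.66, 10.44, 10.66 and 11.33 in wt cultures. In each condition culture 4 was the highest and culture 1 the lowest, over a span of 1.57 to 1.85 on the log2 scale. Nr4a3 (NOR-1, NM_031628) was dim, well above background on 8 of 10 siFoxE1, 4 of 5 siScramble and 5 of 5 wt arrays. Its fitted values were -0.04 against siScramble and -0.03 against wt, with intervals of -0.21 to 0.12 and -0.22 to 0.15.

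Crem encodes activators and repressors of the CREB family from several starts, and 5 probes named for it were read. The brightest (NM_001110860) had log2 ratios of -0.37, -0.21, -0.86 and -0.73 for cultures 1 to 4 and -0.38 for the pool against siScramble. Against wt the ratios were -0.03, -0.15, -0.75 and -0.66 for the cultures and -0.30 for the pool. As for Nr4a2, cultures 3 and 4 were lowest in both comparisons. The fitted value was -0.46 ± 0.123 against siScramble (adjusted p = 0.204) and -0.35 ± 0.150 against wt (adjusted p = 0.283). The second probe of that accession followed it closely, at -0.42 and -0.35, though culture 1 lay above 0 against wt, at 0.05. Another gave -0.12 against siScramble and -0.22 against wt. The last 2 probes were well above background on 2 of 10 siFoxE1 arrays, the pools, and on 3 of 5 arrays of each reference. All of these channels were Cy3, so dye and condition are mixed in these counts. The fitted values of the last 2 probes ran from -0.12 to -0.03, and each had 1 array above 0 against wt, at 0.03 and 0.04. Which of the 5 probes the short ICER transcripts reach is not given in the sources used here.

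In levels, the brightest Crem probe read 7.94, 8.49, 7.88 and 7.97 in siFoxE1 cultures 1 to 4. The siScramble cultures read 8.32, 8.65, 8.64 and 8.69 and the wt cultures 7.96, 8.68, 8.72 and 8.65. The siFoxE1 range of 7.88 to 8.49 overlapped both the siScramble range of 8.32 to 8.69 and the wt range of 7.96 to 8.72. Culture 1 was the lowest of the wt cultures, and its ratio to wt, which is built on that same level, was the one nearest 0.

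Pde10a, a phosphodiesterase that breaks down cAMP and cGMP, was measured by 2 probes of NM_022236, and both gave ratios below 0 on every array of both comparisons. The brighter probe read -0.28, -0.15, -0.53 and -0.52 for cultures 1 to 4 and -0.39 for the pool against siScramble. Against wt it read -0.12, -0.36, -0.34 and -0.16 for the cultures and -0.27 for the pool. Cultures 3 and 4 were the lowest against siScramble, and cultures 2 and 3 against wt. The fitted values were -0.38 ± 0.0884 against siScramble (adjusted p = 0.185) and -0.26 ± 0.0773 against wt (adjusted p = 0.222). The dimmer probe gave -0.39 and -0.30 with adjusted p values of 0.187 and 0.218. With the replicate number as a block, in the setting that called 12.1% of all genes, the brighter probe gave -0.26 against wt (adjusted p = 0.0837) and the dimmer one -0.32 (adjusted p = 0.0364), so the gene, counted by its brighter probe, did not pass. The spread between cultures was larger than these differences. The brighter probe read 8.27, 9.56, 9.80 and 10.07 in siFoxE1, 8.61, 9.72, 10.34 and 10.58 in siScramble and 8.34, 9.92, 10.13 and 10.25 in wt cultures. Culture 1 was the lowest in each condition by over 1 log2 unit.

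Pde4d, an enzyme specific for cAMP, had 2 probes of different transcripts, and neither ran one way on all arrays. The brighter one (NM_017032) read -0.11, 0.20, -0.25 and -0.22 for the cultures and -0.39 for the pool against siScramble. Against wt it read 0.22, 0.29, 0.15 and 0.10 for the cultures and -0.38 for the pool, so the sign there turned with the dye. Its fitted values were -0.24 against siScramble (adjusted p = 0.302) and -0.10 against wt (adjusted p = 0.479). Without the dye term the value against wt was 0.08. The other probe (NM_001113328) gave -0.11 and 0.06.

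Dusp1 (MKP-1, NM_053769) had the smallest spread of ratios against siScramble among the 18 probes. The ratios were -0.27, -0.20, -0.31 and -0.31 for cultures 1 to 4 and -0.34 for the pool, an SD of 0.0502 over the 4 cultures. Against wt they were -0.33, -0.66, -0.70 and -0.52 for the cultures and -0.29 for the pool, so each culture was lower than against siScramble and the pool was not. The fitted values were -0.30 ± 0.0615 against siScramble (adjusted p = 0.153) and -0.42 ± 0.0891 against wt (adjusted p = 0.217), the lowest adjusted p among the 10 genes in each comparison. The blocked fit of all 10 arrays gave -0.47 against wt (adjusted p = 0.0129), again in a setting that called 12.1% of all genes and took the pools as a block of their own. The indirect comparison of siScramble over wt, fitted without pairing arrays by number, gave -0.21 ± 0.0871 (adjusted p = 0.975) and did not pass the test.

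Among the AP-1 and Egr factors, Jun (NM_021835) lay above 0 throughout. Its log2 ratios were 0.40, 0.25, 0.17 and 0.45 for the cultures and 0.20 for the pool against siScramble. Against wt they were 0.83, 0.11, 0.29 and 0.49 for the cultures and 0.25 for the pool. The fitted values were 0.26 ± 0.0749 (adjusted p = 0.216) and 0.34 ± 0.133 (adjusted p = 0.258). Its partner Fos (NM_022197) had ratios on both sides of 0 in both comparisons, with fitted values of 0.08 against siScramble and -0.09 against wt. The confidence intervals of Fos were -0.10 to 0.27 and -0.36 to 0.18.

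Egr1 was read by 2 probes. The brighter, named through the study's tables, gave 0.01, 0.15, 0.48 and 0.57 for the cultures and 0.11 for the pool against siScramble. Against wt it gave 0.53, 0.17, 0.79 and 0.57 for the cultures and -0.02 for the pool. The 4 single cultures were thus all above 0 in both comparisons, and the pools, in which the dyes were swapped, lay near 0. Fitted values were 0.21 against siScramble (adjusted p = 0.449) and 0.25 against wt (adjusted p = 0.301). The dimmer probe (NM_012551) gave 0.10 against siScramble and 0.18 against wt (limma, adjusted p = 0.616 and 0.265), with pools at 0.08 and 0.14. Its ratios were above 0 on all 5 arrays against wt, and on all but culture 1, at -0.08, against siScramble.

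**Figure D4:**
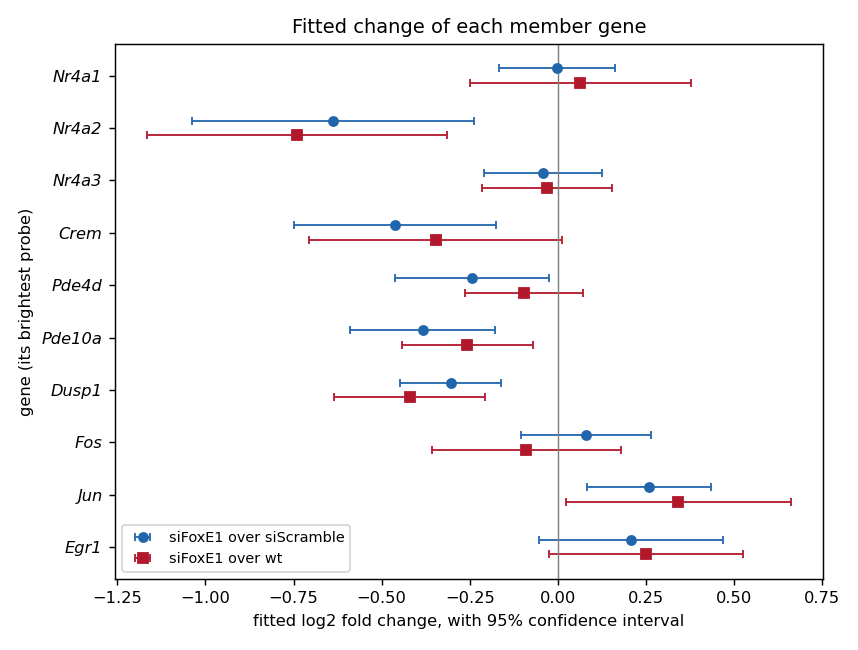
Fitted log2 fold change with its 95% confidence interval for the brightest probe of each gene, in blue against siScramble and in red against wt. The pool carries 50% of the weight of each fitted value. Intervals of Nr4a2, Pde10a and Dusp1 lie below 0 and those of Jun above 0 in both comparisons, before adjustment over all probes.

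The transfection itself was examined through the indirect contrast of siScramble over wt, from the difference between the comparisons. This fit of all 10 arrays had no replicate block, so it ignored that arrays of the same number share a siFoxE1 extract. Its intervals and p-values therefore make no use of the pairing. None of 10182 genes passed an adjusted p under 0.05, and 380 (3.73%) had an unadjusted p under 0.05. Of the 10 genes, Pde4d had a value of 0.23 and Dusp1 of -0.21 at an unadjusted p under 0.05 (limma, adjusted p = 0.975 for both), beside 2.52% of all genes that were higher and 1.21% that were lower. For Nr4a2 the contrast was -0.02, with an interval from -0.50 to 0.46, for Crem 0.13, with one from -0.23 to 0.50, and for Jun 0.10, with one from -0.17 to 0.37. Taken by number, the difference for the brighter Nr4a2 probe was -0.03, 0.05, -0.05 and 0.18 for cultures 1 to 4. For the pools it was -0.24, and these paired differences were not tested.

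The machinery that makes and reads cAMP was counted next. Of 27 listed genes, 19 could be tested against siScramble and 20 against wt, and none passed the adjusted test, with 2 and 3 at an unadjusted p under 0.05, all higher (limma). Over all genes 9.35% and 11.8% were higher at that level, so these counts lay near the share of all genes. The median log2 fold change was -0.01 against siScramble and -0.00 against wt. Chosen after their values were seen, the TSH receptor gene Tshr had values of -0.05 and 0.04, and Creb1 had -0.13 and -0.11. Prkar2b and Prkar1b, which encode regulatory subunits that hold protein kinase A inactive until cAMP binds, were the genes at an unadjusted p under 0.05 in both comparisons, joined by Gnai2 against wt. Prkar2b had log2 ratios of 0.17, 0.15, 0.36 and 0.20 for cultures 1 to 4 and 0.25 for the pool against siScramble, with a fitted value of 0.23 ± 0.0684 (adjusted p = 0.219). Against wt it had 0.30, 0.20, 0.99 and 0.23 for the cultures and 0.34 for the pool, where culture 3 stood well above the rest, with a fitted value of 0.38 (adjusted p = 0.269). Prkar1b gave 0.24 against siScramble and 0.39 against wt (adjusted p = 0.337 and 0.218). Gnai2, an inhibitory G protein, gave 0.13 and 0.23, and Rapgef3, a cAMP-activated exchange factor, gave -0.06 and -0.20.

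Of 16 other cyclic nucleotide phosphodiesterases, 9 could be tested against siScramble and 10 against wt. None passed the adjusted test, and an unadjusted p under 0.05 was found for Pde2a in both comparisons and for Pde1a against siScramble (limma). Over all genes, 9.35% were higher and 8.31% lower at that level against siScramble, and 11.8% were higher against wt. These counts thus lay near the share of all genes. Pde2a, which cGMP stimulates, gave 0.27 against siScramble and 0.24 against wt (adjusted p = 0.248 and 0.255), with all 5 ratios above 0 in each. Pde1a, a calmodulin-dependent enzyme, gave -0.26 and 0.07. Pde9a, specific for cGMP, gave 0.10 and 0.24, and Pde4a, specific for cAMP like Pde4d, gave 0.12 and 0.16.

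Among 40 other immediate early and CREB target genes, 32 were tested against siScramble, where 1 fell and none rose, and 33 against wt, where 1 rose and none fell. An unadjusted p under 0.05 was reached against siScramble by 4 genes with a positive and 9 with a negative value, and against wt by 3 and 5. Over all genes the shares were 9.35% higher and 8.31% lower against siScramble and 11.8% and 10.5% against wt. The one that fell was Areg, amphiregulin, a ligand of the EGF receptor, with log2 ratios of -0.64, -0.54, -0.76 and -0.55 for the cultures and -0.82 for the pool against siScramble. Its fitted value there was -0.72 ± 0.0690 (adjusted p = 0.0132), and against wt it was -0.68 (adjusted p = 0.124). The one that rose was the Kruppel-like factor Klf2, with ratios of 0.63, 0.78, 0.71 and 0.86 for the cultures and 0.76 for the pool against wt. Its fitted value was 0.75 ± 0.0732 against wt (adjusted p = 0.0485) and 0.54 against siScramble (adjusted p = 0.125). The list had a median of -0.09 against siScramble and -0.05 against wt.

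Of 8 listed partners of the Nr4a receptors, 4 were tested and none passed. The retinoid X receptors Rxra and Rxrb, which form dimers with Nr4a1 and Nr4a2, gave -0.08 and 0.10 against siScramble and -0.03 and 0.17 against wt. The coactivator Ncoa2 gave 0.04 and -0.05.

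**Figure D5:**
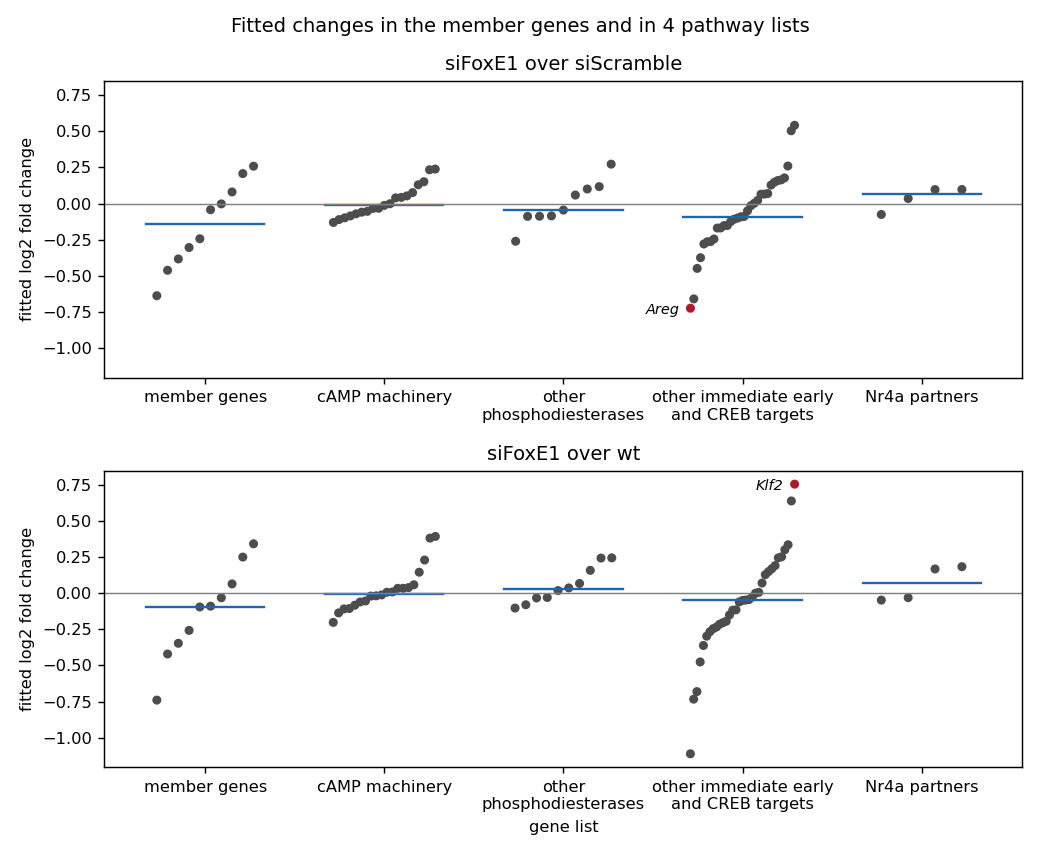
Fitted log2 fold changes against siScramble (upper panel) and wt (lower panel) for the 10 genes and for the tested genes of 4 pathway lists. Each point is a gene, in order of its value, blue lines are medians, and red points with names passed an adjusted p under 0.05. Areg passed against siScramble and Klf2 against wt, and none of the 10 genes did.

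The genes whose log2 level was most like that of Nr4a2 over the 12 cultures, among 10172 genes outside the 10, were Srfbp1, Ccdc86, Cluap1, Dimt1 and Sun1. Pearson's r was 0.976, 0.976, 0.971, 0.968 and 0.968 in that order, and Spearman's rho 0.951 to 0.986. These values describe 12 points from 4 culture numbers and 10 arrays that share extracts, with siFoxE1 in another dye than the references. They were picked for likeness to Nr4a2 over the same cultures, so a lower reading in siFoxE1 is largely built in. Cluap1, Srfbp1, Ccdc86 and Dimt1 read lower on all 5 arrays of either comparison, and Sun1 on all but culture 2 against siScramble, at 0.03. Cluap1 had ratios of -0.38, -0.17, -0.50 and -0.42 for the cultures and -0.28 for the pool against siScramble. Its ratios against wt were -0.27, -0.21, -0.47 and -0.39 for the cultures and -0.39 for the pool. Dimt1, which methylates ribosomal RNA, gave fitted values of -0.21 and -0.34, and Ccdc86 gave -0.29 and -0.24. None of the 5 passed the adjusted test in either comparison (limma, adjusted p = 0.189 to 0.351).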

How the data were processed

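The 10 arrays were 2-colour Agilent rat arrays of PCCl3 cells. The deposited scanner files hold median spot and background intensity per channel and Agilent's log10 ratio, and the authors' table holds log2 ratios that they normalized with limma 3.2.3. Here the deposited median intensity was background-corrected (normexp, offset 50), normalized by loess within arrays and Aquantile between them, turned to siFoxE1 over reference, and averaged over spots of a probe. The authors' log2 table and the processed signals served as alternatives, and the log10 ratios that the authors deposited only served to check direction. Against them the columns of that table correlated at 0.625 to 0.781 for single cultures and at -0.704 and -0.657 for the pools, so all ran as siFoxE1 over reference, with medians from -0.00474 to 0.00675. Control and outlier spots were left out. Probes had to be well above background on 3 arrays of a condition.

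Each comparison was fitted with a dye term in limma 3.58.1 (R 4.3.3), with Benjamini-Hochberg adjustment over all probes and 3 residual degrees of freedom, and a gene is represented by its brightest tested probe. The pool then carries 50% of the weight and each single-culture array 12.5%. The labels call the 4 samples of a comparison biological replicates without saying how the cultures were kept apart. In each comparison the p-values rest on the spread between these 4 single-culture arrays. The dye term fits the pool exactly, so the error of the pool was not observed. The same siFoxE1 extract was used on both arrays of a number, so the numbers pair arrays. Same-number deviations correlated at 0.40 to 0.76 between the comparisons (different numbers -0.65 to 0.51). Of the array's probes, 17998 were named by accession, 185 through the study's tables and 12184 not at all. The genes and lists were chosen with earlier results of these data known. Named list genes were those that passed, or otherwise those with the lowest p, of which 1 is not reported here. Promoters came from RefSeq (GRCr8), while the array was designed on another build. The fit was checked on simulated data.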

Additional observations from a re-analysis of the deposited data

Results flagged for a closer look

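One of the dim Crem probes had a log2 ratio of -0.24 against wt in culture 3, far below the other 3 cultures. The gap to the nearest of them was 0.846 of the range, above Dixon's critical value for 4 samples. It was 1 of 36 groups of cultures checked, and chance sets apart about 1 in 20 such groups. The probe was well above background on 2 of 10 siFoxE1 arrays, the pools, where siFoxE1 was in Cy3.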

How the results depend on the processing

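In the main fits none of the 10 genes passed, so there was no called value whose direction could change. Under most settings 0 of the 10 genes passed, leaving out each culture in turn, with the pool kept, included (0 to 0 genes). The exceptions were settings that drop the dye correction or pool all arrays. Against siScramble, 5 genes (Crem, Dusp1, Jun, Nr4a2 and Pde10a) passed with no dye term and 5 with the single-culture arrays alone, where 4.62% and 6.15% of all genes passed, and 1 (Pde10a) with all 10 arrays in one fit (0.756%). Against wt, 2 (Dusp1 and Nr4a2) passed with no dye term (5.8%), 1 (Dusp1) with the single-culture arrays alone (2.48%) and 4 (Dusp1, Jun, Nr4a2 and Pde10a) with all 10 arrays in one fit (13.5%). With the replicate number as a block, 0 passed against siScramble and 2 (Dusp1 and Nr4a2) against wt (12.1%), and no call of siScramble against wt changed. The pools there were a block of their own, so p-values of the blocked fit treat them as a further culture, which they are not. With the single-culture arrays alone, dye and condition cannot be told apart. With no dye term, a dye effect is only partly offset by the pool and stays in the values. Nr4a2 ranged from -0.77, with slide as a term, to -0.56 against siScramble (adjusted p 0.0313 to 0.366) and from -0.84 to -0.68 against wt (0.0209 to 0.483). The sign of Nr4a1 against siScramble turned in 7 of 17 settings, between -0.02 and 0.03, and those of Fos and the brighter Pde4d probe against wt in 2 of 16. The alternative with mean spot signals was not run, since the files used here hold median spot signals.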
